A study of Rattus norvegicus with 12 samples.

Results

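Corpora lutea (CL) of pregnant rats given an aromatase inhibitor (AI) until day 16 of pregnancy were compared with CL taken on day 12, the day on which treatment began. The comparison rests on 6 of the 12 arrays of the series, the 3 that are labelled as AI treated on day 16 and the 3 labelled as untreated on day 12, and it was read across 14509 genes. All animals were pregnant Wistar rats, with the luteal RNA of 1 rat on each array. The day 12 group (D12) had no treatment. The AI group received anastrozole by mouth at 1 mg/kg body weight daily for 4 days. The other groups were also taken on day 16, after 4 days of vehicle (VEH) or of AI at the same dose with injected estradiol (AI+E2, 10 µg per day), and they are used here only for values beside those of AI. AI and D12 differ in the drug, in its vehicle and dosing and in 4 days of pregnancy, which cannot be told apart in this comparison alone. The change from D12 to VEH carries the days and the dosing without the drug. The difference between the changes in AI and in VEH is the same quantity as AI minus VEH, since the D12 arrays cancel, and that contrast was used to test it.

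The CL is the gland that forms from the ovulated follicle and makes progesterone, which keeps pregnancy going. In the rat it also expresses much aromatase, the Cyp19a1 product, which turns androgens into estradiol inside the gland, and estradiol acts there beside prolactin and LH. Luteal cells take up or make cholesterol, carry it into mitochondria with Star, cut it to pregnenolone with Cyp11a1 and its electron donor Fdx1, and convert it further in the endoplasmic reticulum.

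Values are deposited log2 signals from robust multiarray averaging (RMA), and a log2 fold change is a difference between group means of these, with its standard error (SE). A gene is said to have risen or fallen where limma's adjusted p (Benjamini-Hochberg over all 14509 genes) was under 0.05 in a fit of all 12 arrays. The p values measure the spread between animals' arrays, and the number of arrays limits the precision. With 3 arrays in each group, the smallest two-sided p of an exact permutation test is 0.1. RNA is that of whole CL, so fewer cells of a type and less RNA per cell cannot be told apart. Array medians lay between 6.51 and 6.56, and correlations between arrays between 0.982 and 0.997. D12 replicate 2 stood apart, with a mean signal over 23 interferon-stimulated genes of 8.69, against 7.34 and 7.41 in the other D12 arrays and 7.73 to 7.86 in AI. The tissue label was checked on its markers. The mean signal of 10 luteal cell markers was 11.4 to 11.5 in D12 and 11.6 in each AI array, while the means of markers of oviduct epithelium, periovarian fat and follicles stayed between 5.96 and 6.80 in these 6 arrays. Single genes were less even. Fshr, of the follicle list, had 6.36, 5.93 and 6.47 in D12 and 6.18, 6.22 and 7.07 in AI. Inhba had 10.63, 8.54 and 10.72 in D12 and 9.50, 9.51 and 10.98 in AI. Hsd17b1 had 8.24, 7.45 and 8.43 in D12 and 7.09, 7.14 and 8.48 in AI. Amh, also of the follicle list, did not follow this order. Whether follicular material differed between arrays was not tested. Signals of different probe sets are no measure of relative RNA amounts.

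Of the 14509 genes, 1101 passed the test in AI against D12 (7.59%), with 480 rises (3.31%) and 621 falls (4.28%). At 1.5-fold or more there were 171 genes (1.18%), 88 up (0.607%) and 83 down (0.572%), and at 2-fold or more 29 (0.2%), 17 up (0.117%) and 12 down (0.0827%). Over the same fit, VEH against D12 gave 1472 genes at the adjusted p (10.1%), of which 1003 rose (6.91%) and 469 fell (3.23%). In AI+E2 against D12 7.52% of genes rose and 4.58% fell, and 17% passed in AI against VEH. The median log2 fold change over all genes was -0.01 in AI against D12. The number of 2-fold genes was 44, with 30 rises, without AI replicate 3, and the number at the adjusted p was 657 without AI replicate 1. The t-test of the study's methods, on the same values after Benjamini-Hochberg adjustment, passed 45 genes, 8 of them at 2-fold. Of the lists described next, it passed 0 genes of cholesterol or fatty acid synthesis, 2 chaperones, 2 antioxidant genes and 3 amino acid enzymes.

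**Figure D1:**
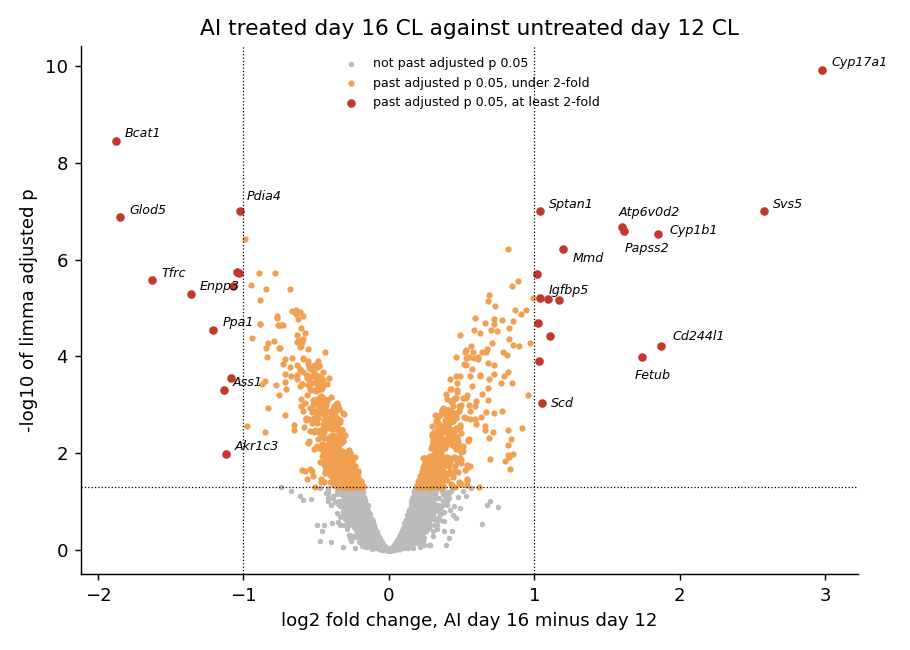
Each point is 1 of 14509 genes, with the log2 fold change of AI day 16 CL minus untreated day 12 CL on the x axis and -log10 of limma's adjusted p on the y axis. The 29 red points passed the test at 2-fold or more, 17 to the right and 12 to the left, and Cyp17a1 and Bcat1 lie farthest out on each side.

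The largest rise was that of Cyp17a1, the enzyme that makes androgens from progestins. Its signal was 7.98, 7.70 and 7.95 in D12 and 10.86, 10.98 and 10.73 in AI. The AI arrays all lay well above the D12 arrays, and the 7.89-fold difference was large against a spread of under 0.3 on the log2 scale within each group (log2 fold change 2.98, SE 0.096, adjusted p = 1.21e-10). Over the same days Cyp17a1 fell in VEH, by 1.51 on the log2 scale (adjusted p = 7.20e-08). AI+E2 was below D12 as well, at -0.43 (adjusted p = 0.0075).

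Svs5, which encodes a secretory protein known from the seminal vesicle, had signals of 5.90, 6.03 and 5.75 in D12 and 8.59, 8.81 and 8.00 in AI (log2 fold change 2.58, SE 0.14, adjusted p = 1.00e-07). Cyp1b1, a monooxygenase that hydroxylates estradiol, had signals of 6.46, 6.70 and 6.63 in D12 and 8.56, 8.71 and 8.08 in AI (1.85, SE 0.12, adjusted p = 3.02e-07). AI replicate 3 was the lowest of the AI arrays for both genes, and the groups did not overlap. In VEH, Svs5 and Cyp1b1 fell by 0.62 and 0.41 (adjusted p = 0.0121 and 0.0449).

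Atp6v0d2, which belongs to the vacuolar pump for protons, moved in opposite directions with and without the drug. Its signals were 8.09, 8.35 and 8.45 in D12, 9.95, 9.90 and 9.85 in AI, and 6.08, 5.90 and 5.88 in VEH. It was therefore highest in every AI array and lowest in every VEH array, with log2 fold changes from D12 of 1.60 in AI (SE 0.100, adjusted p = 2.13e-07) and -2.34 in VEH (adjusted p = 1.16e-09). Of the 17 measured genes of the pump, it was the only one that rose, and Atp6v1a and Atp6ap2 fell (-0.37 and -0.27). The share called was 17.6%, beside 7.59% of all genes. The call of Atp6v1a was lost with the mean of its probe sets (adjusted p = 0.095) and without D12 replicate 2 or 3 or AI replicate 1 or 2 (adjusted p = 0.056, 0.103, 0.13 and 0.058).

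Papss2, which makes the sulfate donor of sulfotransferases, rose by 1.62 on the log2 scale (SE 0.10, adjusted p = 2.54e-07). Its AI arrays lay between 8.40 and 8.64 and its D12 arrays between 6.84 and 6.94. Fetub, a protease inhibitor of serum, rose by 1.74, and Mmd by 1.20. In VEH, Papss2 and Mmd fell, by 0.40 and 0.37, and Fetub stood at -0.66 (adjusted p = 0.0632).

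Several of the rises had little counterpart in VEH. The genes whose VEH mean was nearest to D12, among rises of 2-fold or more, were the sialyltransferase gene St3gal4 (1.03 in AI, -0.09 in VEH), Cd244l1, a relative of a natural killer cell receptor gene (1.87 and 0.12), Tmem178a (1.17 and 0.16), the phosphatidate phosphatase gene Lpin1 (1.11 and -0.16) and the spectrin gene Sptan1 (1.04 and -0.18). In VEH against D12, 0 of the 5 passed limma's test (1 at an unadjusted p under 0.05, Sptan1), and all 5 passed in AI against VEH. Both outcomes follow in large part from the way the genes were chosen. In AI+E2 Tmem178a (1.69), Cd244l1 (0.87) and Sptan1 (0.22) rose, while St3gal4 and Lpin1 (0.12 each) did not pass. St3gal4 signals were 10.24, 10.23 and 10.24 in AI against 9.28, 8.94 and 9.38 in D12. Cd244l1 was less even, at 8.01, 8.32 and 7.35 in AI against 6.11, 5.67 and 6.28 in D12. Ccnd2, the cyclin D2 gene, and Cnp were the remaining rises of 2-fold or more that belong to no list and were chosen after their values were seen. Ccnd2 went from between 10.50 and 10.76 in D12 to between 11.54 and 11.74 in AI (1.02, adjusted p = 2.07e-05), whereas the cyclin D1 gene Ccnd1 was at -0.03 (SE 0.074, adjusted p = 0.893).

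The largest fall was that of Bcat1, which starts the breakdown of branched-chain amino acids. Its signals were 10.31, 10.37 and 10.45 in D12 and 8.50, 8.69 and 8.31 in AI. The groups were far apart, with a 3.67-fold lower mean in AI (log2 fold change -1.88, SE 0.080, adjusted p = 3.51e-09). Bcat1 rose in VEH by 0.48 and was below D12 in AI+E2 as well, at -1.26 (adjusted p = 1.24e-07).

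Glod5, which encodes a protein with a glyoxalase domain, had signals of 8.00, 8.49 and 8.22 in D12, 6.28, 6.42 and 6.47 in AI and 10.41, 10.10 and 10.23 in VEH. It fell in AI (-1.85, SE 0.11, adjusted p = 1.34e-07) and rose in VEH (2.01, adjusted p = 1.46e-08). The ectonucleotidase gene Enpp3 followed the same order, with AI arrays between 7.90 and 8.28, D12 arrays between 9.28 and 9.70 and VEH arrays between 10.36 and 10.77. It stood at -1.36 in AI (SE 0.12, adjusted p = 5.13e-06) and 1.11 in VEH. Cd80, a ligand that costimulates T cells, stood at -1.08 in AI and 1.28 in VEH, and Rab27a, a GTPase of vesicle secretion, at -0.83 and 1.32.

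Tfrc, the transferrin receptor gene that brings iron into cells, had signals of 8.87, 9.23 and 8.97 in D12 and 7.32, 7.41 and 7.45 in AI (-1.63, SE 0.13, adjusted p = 2.69e-06). It fell in the other groups too, by 0.44 in VEH (adjusted p = 0.0447) and stood at -2.77 in AI+E2 (adjusted p = 7.97e-09), so that AI+E2 was the lowest. Ass1, the urea cycle enzyme argininosuccinate synthase, had signals of 10.41, 10.93 and 10.55 in D12 and 9.25, 9.31 and 9.93 in AI, and the groups did not overlap (-1.14, SE 0.17, adjusted p = 0.000491). It was at 0.57 in VEH and at -2.25 in AI+E2, each past the test. AI replicate 3 lay between the other AI arrays and D12.

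Falls of 2-fold or more with VEH nearest to D12 were those of Ssr3, which belongs to the protein translocon, with -1.04 in AI and 0.03 in VEH, the inorganic pyrophosphatase gene Ppa1 (-1.21 and 0.08), the disulfide isomerase gene Pdia4 (-1.03 and -0.20), the integrin gene Itga6 (-1.07 and 0.28) and Tfrc. Ppa1 signals were 9.70, 9.19 and 9.83 in D12 and 8.37, 8.52 and 8.21 in AI. Of these 5, Pdia4 and Tfrc passed the test in VEH against D12. Pdia4 and Ssr3 belong to the groups described next.

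**Figure D2:**
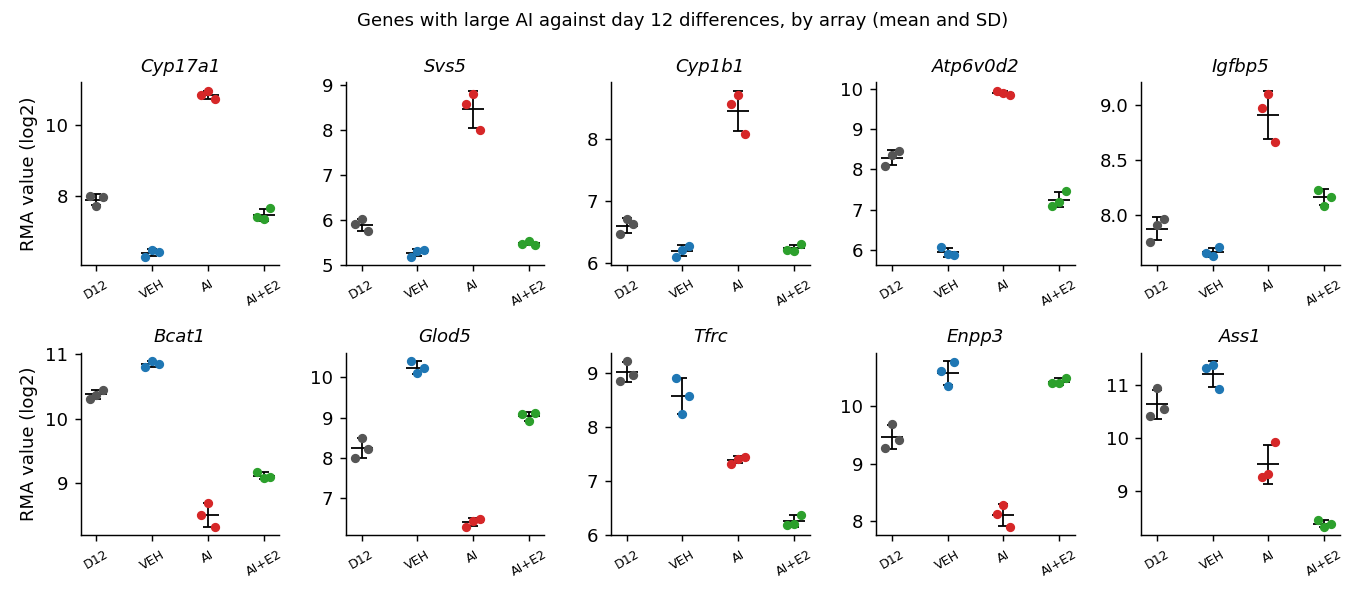
RMA signals (log2) of 10 genes are plotted for each array in D12, VEH, AI and AI+E2, with the mean and SD of 3 arrays in black. In the upper row the AI points lie above all others, while in the lower row they lie below D12 and VEH, with AI+E2 lower still for Tfrc and Ass1.

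Genes of chaperones in the endoplasmic reticulum, where secreted and membrane proteins are folded, were among those that fell. Chaperones and disulfide isomerases bind and oxidise new proteins, and the factors Atf4, Xbp1 and Ddit3 act in the response to unfolded proteins or lack of amino acids. Of the 21 listed genes, all measured, 0 rose and 12 fell in AI, or 57.1% against 4.28% of all genes that fell. The median log2 fold change was -0.26, beside -0.01 over all genes, and the mean signal of the list was 9.10 to 9.19 in AI against 9.40 to 9.49 in D12. In VEH against D12, 0 rose and 5 of the 21 fell with a median of -0.04, beside 3.23% of all genes that fell there. In AI+E2 3 rose and 3 fell, beside 7.52% and 4.58% of all genes. Without D12 replicate 2 the median in AI was -0.35.

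Of the list, Pdia4 fell most. It had signals of 10.06, 10.16 and 10.19 in D12 and 9.14, 9.13 and 9.06 in AI, with groups more than 0.9 apart (log2 fold change -1.03, SE 0.059, adjusted p = 1.00e-07). Creld2, a disulfide isomerase, fell by 0.75 (SE 0.077, adjusted p = 2.28e-05), and its AI arrays lay between 7.36 and 7.71 against 8.23 to 8.35 in D12. Hyou1, a large chaperone of the Hsp70 family, had signals of 9.80, 9.91 and 9.92 in D12 and 9.30, 9.32 and 9.19 in AI (-0.61, SE 0.063, adjusted p = 2.56e-05). Pdia6 fell by the same 0.61 (SE 0.067, adjusted p = 4.55e-05). VEH was at 0.04 for Creld2, 0.02 for Hyou1 and 0.12 for Pdia6, and the 3 did not pass the test there.

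The main Hsp70 and Hsp90 chaperones of the compartment, Hspa5 and Hsp90b1, fell by 0.48 each, the calcium-binding chaperone Calr by 0.44, and the Hspa5 cochaperone Dnajb9 by 0.67. Hspa5 signals were 12.21, 12.23 and 12.32 in D12 and 11.74, 11.80 and 11.79 in AI. On the amino acid and stress side of the list, Atf4 fell by 0.26, a call that was lost on leaving out any array but D12 replicate 2. Ddit3, Asns, Chac1, Trib3 and Atf3 were between -0.07 and 0.12 and did not pass. Herpud1, a protein of the degradation pathway, stood at 0.13 in AI and fell by 0.47 in VEH, and Xbp1 stood at -0.14 and fell by 0.32 in VEH. Members named here beyond the first 4 were chosen after their values were seen.

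Promoters are shown because many of these genes are known to share short elements that bind the unfolded protein response factors. Windows of 300 bases, from 250 before to 50 after the RefSeq start on GRCr8, were searched on both strands for the endoplasmic reticulum stress element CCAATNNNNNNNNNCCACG and for its second form ATTGGNCCACG. Both contain CCAAT, the second on its other strand. Of 27457 promoters of that length, 0.0765% held the first element and 0.0546% the second. Of the 17 list members with a promoter in the table, 7 held the first (Calr, Canx, Creld2, Dnajc3, Hsp90b1, Hspa5 and Xbp1) and 2 the second (Herpud1 and Hyou1). Among the 9 members with a promoter that fell, 4 held the first and 1 the second. Pdia4, with the largest fall, held neither, and Canx, Dnajc3, Herpud1 and Xbp1 held one and did not pass, although Canx and Xbp1 did pass, as falls of 0.24 and 0.19, when the arrays were quantile normalized again. Either element was present in 5 of the 9 that fell and in 4 of the other 8. A match is a description of letters, not of a bound site. Shown are 4 members that fell, each written 5′ to 3′ along its gene, with the elements in capitals, on either strand.
Hspa5 (chr3:38452766-38453065, plus strand): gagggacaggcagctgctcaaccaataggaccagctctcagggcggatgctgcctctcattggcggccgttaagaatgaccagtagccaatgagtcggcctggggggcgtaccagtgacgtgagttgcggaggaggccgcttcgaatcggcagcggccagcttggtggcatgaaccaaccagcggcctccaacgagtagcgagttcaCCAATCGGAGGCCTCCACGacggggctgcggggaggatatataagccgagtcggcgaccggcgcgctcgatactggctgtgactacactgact
Hsp90b1 (chr7:23012244-23012543, minus strand): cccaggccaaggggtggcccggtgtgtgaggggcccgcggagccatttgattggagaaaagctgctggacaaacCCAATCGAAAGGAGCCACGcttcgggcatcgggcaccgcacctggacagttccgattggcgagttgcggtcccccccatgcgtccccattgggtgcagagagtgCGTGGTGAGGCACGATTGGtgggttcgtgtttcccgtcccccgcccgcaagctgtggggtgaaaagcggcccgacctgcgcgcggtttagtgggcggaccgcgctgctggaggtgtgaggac
Creld2 (chr7:121789134-121789433, plus strand): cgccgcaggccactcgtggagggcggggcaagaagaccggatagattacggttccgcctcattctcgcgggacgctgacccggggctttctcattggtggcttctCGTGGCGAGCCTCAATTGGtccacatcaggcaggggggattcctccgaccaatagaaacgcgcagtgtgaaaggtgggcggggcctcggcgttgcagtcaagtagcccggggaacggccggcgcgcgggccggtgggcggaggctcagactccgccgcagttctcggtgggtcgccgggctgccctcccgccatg
Hyou1 (chr8:53602632-53602931, plus strand): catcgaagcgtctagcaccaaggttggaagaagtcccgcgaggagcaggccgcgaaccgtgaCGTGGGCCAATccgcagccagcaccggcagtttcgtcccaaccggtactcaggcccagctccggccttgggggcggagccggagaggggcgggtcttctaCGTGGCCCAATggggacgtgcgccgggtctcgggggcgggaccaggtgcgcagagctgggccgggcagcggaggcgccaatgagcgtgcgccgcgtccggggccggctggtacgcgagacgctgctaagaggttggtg
The element began 43 bases before the start in Hspa5 and 145 before it in Creld2. Hsp90b1 held 2 of the first form, beginning 176 and 72 bases before the start, and Hyou1 held 2 of the second, 188 and 88 bases before it.

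The machinery that carries proteins into the same compartment was looked at after the fall of Ssr3 was seen, so its counts are a description only. It comprises the Sec61 channel, the signal recognition particle, the translocon-associated proteins (the Ssr genes), signal peptidase and the oligosaccharyl transferase that adds sugar chains. Of 30 measured genes, 0 rose and 14 fell in AI (46.7%, beside 4.28% of all genes that fell), with a median of -0.23. In VEH, 8 rose and 0 fell, with a median of 0.10, beside 6.91% of all genes that rose there. In AI+E2 4 rose and 5 fell, beside 7.52% and 4.58% of all genes. The mean signal was 9.46 to 9.65 in AI against 9.78 to 9.94 in D12.

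Ssr3 signals were 10.09, 9.92 and 10.05 in D12 and 8.86, 9.07 and 9.00 in AI, with groups 0.85 or more apart (-1.04, SE 0.079, adjusted p = 1.81e-06). Sec11c, a catalytic subunit of signal peptidase, had signals of 8.81, 8.87 and 9.02 in D12, 7.88, 8.18 and 7.97 in AI and 9.83, 9.55 and 9.65 in VEH. It fell in AI by 0.89 (SE 0.091, adjusted p = 2.16e-05) and rose in VEH by 0.78 (adjusted p = 5.01e-05). The channel subunit gene Sec61a1 fell by 0.59, Ssr1 by 0.64 and the transferase subunit gene Ostc by 0.61. Not every member moved. Sec11a, also of signal peptidase, was at -0.04 in AI (SE 0.13, adjusted p = 0.932) and rose in VEH by 0.52. Ssr4 was at 0.00 in AI (SE 0.086) and rose in VEH by 0.91. No promoter of this family held either element, among 27 searched.

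**Figure D3:**
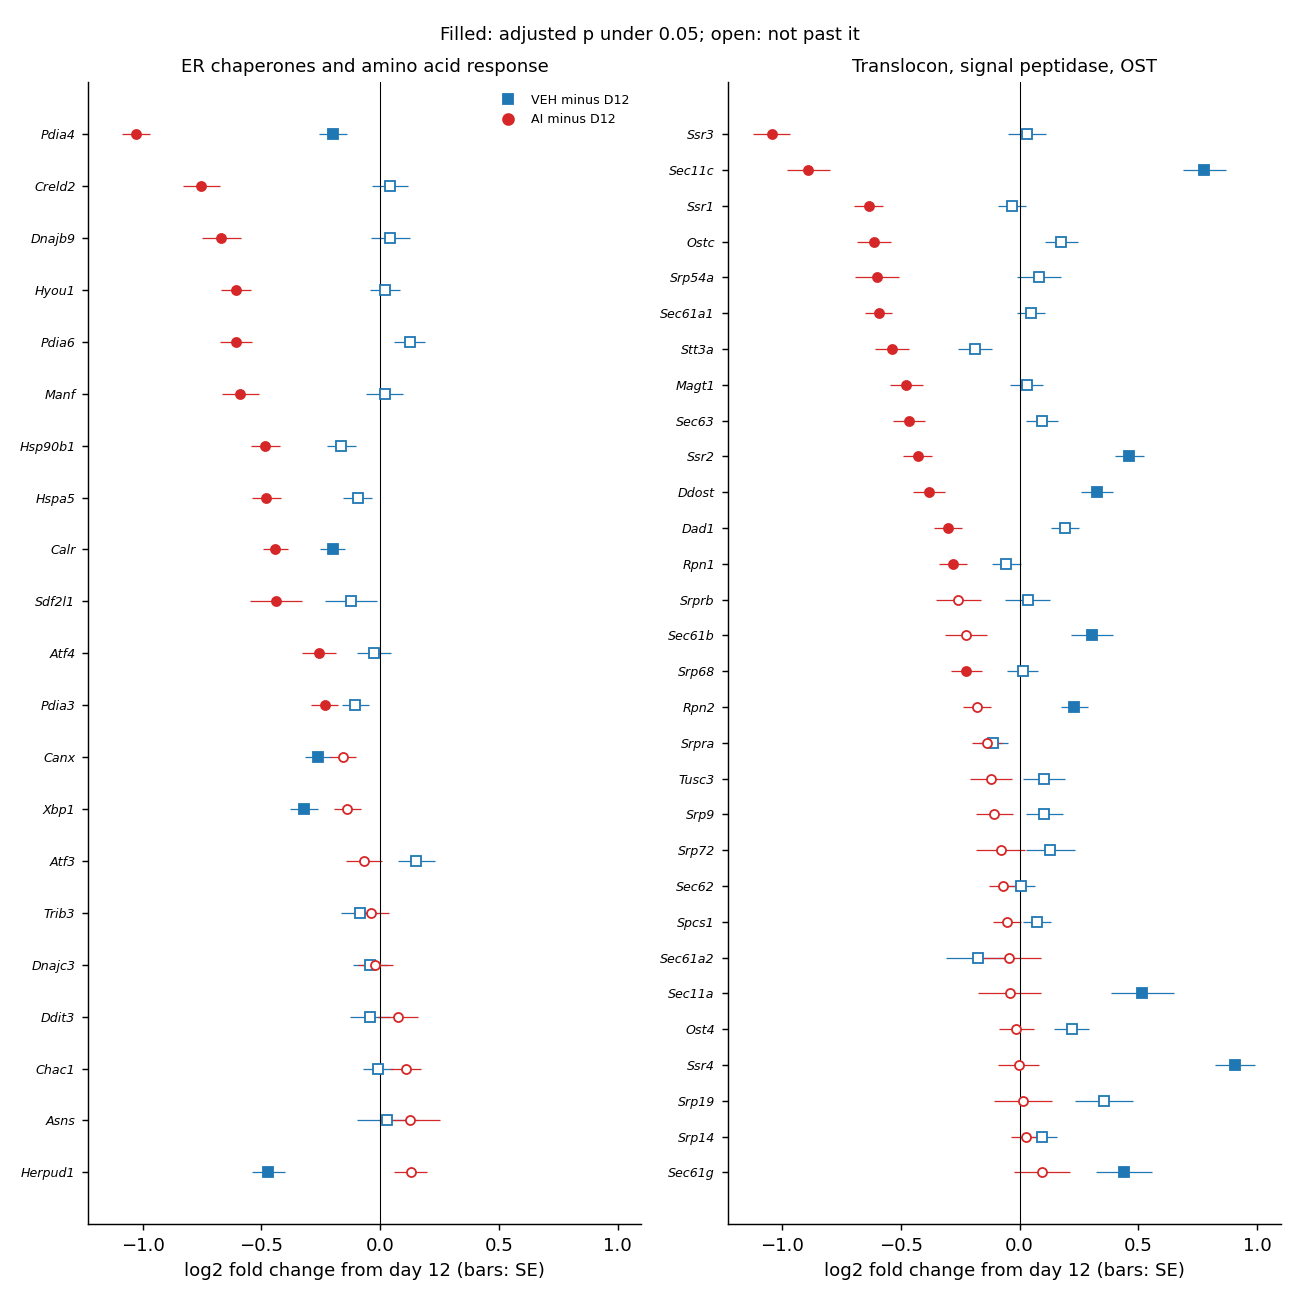
Log2 fold changes from day 12 with SE bars are plotted for each gene of the chaperone list (left, 21 genes) and of the translocation and glycosylation machinery (right, 30 genes), in red for AI and blue for VEH, filled where adjusted p was under 0.05. Red points lie left of 0 for 12 and 14 filled members, while most blue points lie near or right of 0.

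Genes of lipid synthesis were above day 12 in AI and below it in VEH. Cholesterol is made from acetyl-CoA through mevalonate, isoprenoids, squalene and lanosterol. In AI, 12 of the 20 measured genes for making or taking up cholesterol rose and 0 fell (60% against 3.31% of all genes that rose), with a median of 0.41. In VEH 0 rose and 18 fell, with a median of -1.31, and in AI+E2 0 rose and 16 fell, with a median of -0.48. Over all genes 3.23% fell in VEH and 4.58% in AI+E2. The mean signal of the list was 10.4 to 10.6 in AI and 10.0 to 10.2 in D12.

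Sqle, the squalene epoxidase, had signals of 9.89, 9.67 and 9.92 in D12, 10.93, 10.87 and 10.73 in AI and 7.99, 7.78 and 7.95 in VEH. The AI arrays were the highest and the VEH arrays the lowest, with log2 fold changes of 1.02 (SE 0.080, adjusted p = 1.96e-06) and -1.92 (adjusted p = 9.41e-10). Cyp51, which demethylates lanosterol, went from between 10.90 and 11.19 in D12 to between 11.80 and 12.01 in AI (0.86, SE 0.081, adjusted p = 1.12e-05) and to between 8.60 and 8.82 in VEH (-2.35). Mvd, of the mevalonate steps, rose by 0.82 and Lss, which closes the sterol rings, by 0.71. The isomerase gene Idi1 stood at 0.69 in AI (adjusted p = 0.0128) and at -2.76 in VEH, and its rise did not pass without AI replicate 1 (adjusted p = 0.055). For each of these genes the rise above day 12 was smaller than the fall below it in VEH, with the exception of Mvd.

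Fatty acid synthesis showed the same directions. Of 13 measured genes, 7 rose and 0 fell in AI (53.8%, beside 3.31% of all genes that rose), with a median of 0.30. In VEH 0 rose and 7 fell, beside 3.23% of all genes that fell there. Acly, which makes cytosolic acetyl-CoA, had signals of 9.21, 9.17 and 9.34 in D12 and 10.18, 10.23 and 9.97 in AI (0.89, SE 0.071, adjusted p = 2.72e-06). Scd, the stearoyl-CoA desaturase, had 9.55, 8.81 and 9.62 in D12 and 10.42, 10.54 and 10.19 in AI (1.05, SE 0.17, adjusted p = 0.000932), and its D12 replicate 2 was well below the other D12 arrays. Acss2 and the synthase gene Fasn rose by 0.73 and 0.70. In VEH these stood at -0.93 for Acly, -1.54 for Scd, -2.10 for Acss2 and -0.34 for Fasn, each past the test.

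Of 17 measured genes of fatty acid oxidation, 0 rose and 7 fell in AI, with a median of -0.20. The share called was 41.2%, beside 7.59% of all genes. In VEH 3 rose and 1 fell, beside 6.91% and 3.23% of all genes. The count in AI was 4 without D12 replicate 3, without AI replicate 1 or without AI replicate 3. Ppara, the nuclear receptor that induces oxidation genes, had signals of 7.20, 7.52 and 7.39 in D12 and 6.65, 6.71 and 6.81 in AI (-0.65, SE 0.12, adjusted p = 0.00255). The isomerase gene Eci1 fell by 0.47, Acadl, a dehydrogenase of long acyl chains, by 0.40 and the thioesterase gene Acot1 by 0.65. Ppara, Eci1 and Acadl did not pass in VEH, whereas Acot1 rose there by 0.90. Of 18 genes of lipid droplets and cholesterol efflux, 1 rose, Soat1, which esterifies cholesterol (0.40, adjusted p = 0.0013), and 0 fell. The share called there was 5.56%.

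**Figure D4:**
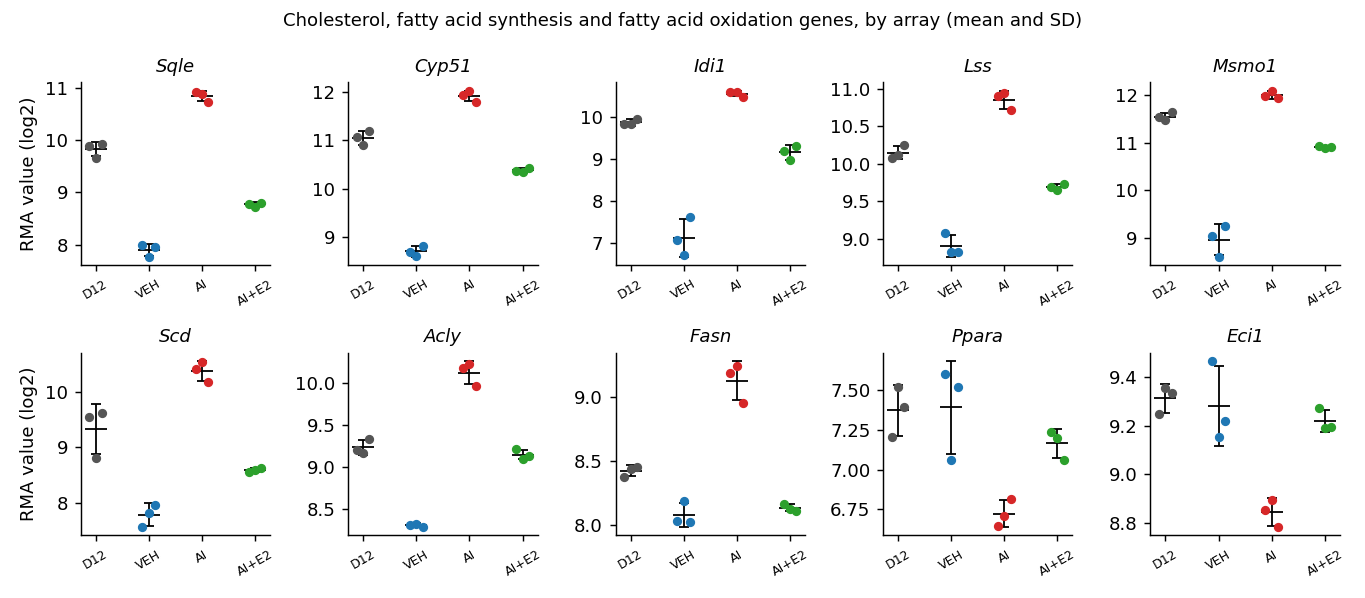
RMA signals (log2) of 10 genes by array, with mean and SD of 3 arrays, show cholesterol synthesis in the upper row, fatty acid synthesis in Scd, Acly and Fasn and oxidation in Ppara and Eci1. For the synthesis genes the AI arrays lie above D12 and the VEH arrays below it, and for the oxidation genes the AI arrays lie lowest.

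Genes of the steps from cholesterol to progesterone moved less than Cyp17a1. Of 12 measured, 3 rose and 1 fell (33.3% called, beside 7.59% of all genes). Fdx1 had signals of 10.65, 10.52 and 10.80 in D12 and 11.21, 11.24 and 11.28 in AI (0.59, SE 0.072, adjusted p = 0.000105). It fell by 0.60 in VEH and rose by 0.65 in AI+E2, where its signals were 11.30, 11.21 and 11.39. The values that follow are again those of AI. Cyp11a1 stood at 0.27 (SE 0.061, adjusted p = 0.0119) and Scarb1, the receptor for high density lipoprotein, at 0.25 (SE 0.058, adjusted p = 0.0166). Both calls were lost when the arrays were quantile normalized again, where the values were 0.04 and 0.05. Star stood at 0.14 (SE 0.053, adjusted p = 0.146). The 3 rises were 1 without AI replicate 2 and 2 without D12 replicate 2 or AI replicate 1. Nr5a2, a nuclear receptor that drives steroidogenic genes, was at -0.24 (adjusted p = 0.0267), and leaving out any array but D12 replicate 1 ended its call.

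Cyp19a1, whose product the drug blocks, had signals of 11.36, 11.55 and 11.45 in D12, 11.74, 11.86 and 11.85 in AI and 12.08, 12.09 and 12.11 in VEH. The groups did not overlap and AI lay between D12 and VEH. Its log2 fold change was 0.36 in AI (SE 0.060, adjusted p = 0.0013) and 0.64 in VEH (adjusted p = 5.61e-06), and the difference between these, AI minus VEH, was -0.27 (adjusted p = 0.0045). The drug acts on the enzyme, so its transcript is no check of the label. Of the 10 listed genes of androgen and estrogen synthesis and metabolism, 4 rose (Cyp17a1, Cyp1b1, Cyp19a1 and Cyb5a) and 1 fell (Hsd17b4). The share called was 50%, beside 7.59% of all genes, and Cyp1b1 acts on estradiol rather than making it. Of 8 genes of progesterone catabolism, 0 rose and 1 fell (12.5%), Akr1c3, the rat 20α-hydroxysteroid dehydrogenase gene formerly named Akr1c18. Akr1c3 signals were 8.98, 9.95 and 8.96 in D12 and 7.76, 8.10 and 8.67 in AI (-1.12, SE 0.24, adjusted p = 0.0101), and VEH was lower, at -2.75. The AI and D12 arrays lay close at their edges, the call did not hold without AI replicate 1 (adjusted p = 0.062), and probes of its near-identical family members could share signal.

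Of receptors and hormone signalling genes, Prlr and Esr1 fell and Lhcgr and Esr2 did not pass the test. Prlr, the prolactin receptor gene, had signals of 10.63, 10.57 and 10.74 in D12 and 10.11, 10.13 and 10.24 in AI, without overlap (-0.49, SE 0.066, adjusted p = 0.000249), and was at -0.18 in VEH (adjusted p = 0.109). The LH receptor gene Lhcgr was at 0.00 (SE 0.058, adjusted p = 0.997). Among the 16 signalling genes of both hormones there were 1 rise and 3 falls (25% called, beside 7.59% of all genes), a count that was 0 and 2 without D12 replicate 2 or AI replicate 1 and 1 and 1 without AI replicate 3. Among 12 estrogen receptors and cofactors 1 rose and 2 fell (also 25%). Esr1, the estrogen receptor α gene, had signals of 9.39, 9.72 and 9.52 in D12 and 9.20, 9.15 and 9.00 in AI (-0.43, SE 0.10, adjusted p = 0.0168), and it stood at -0.38 in VEH. Its call was lost without D12 replicate 2 or AI replicate 3 (adjusted p = 0.062 and 0.074). Esr2 was at 0.07 (SE 0.14, adjusted p = 0.88).

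Of 17 genes of the insulin-like growth factor system, 6 rose and 2 fell in AI, with a median of 0.12. The share called was 47.1%, beside 7.59% of all genes. Igfbp5, which binds the factors outside the cell, had signals of 7.76, 7.91 and 7.96 in D12, 8.97, 9.10 and 8.67 in AI and 7.65, 7.63 and 7.70 in VEH. The AI arrays all lay above the others (1.04, SE 0.092, adjusted p = 6.12e-06, with -0.21 and adjusted p = 0.175 in VEH). Pappa, a protease that cuts binding proteins of the family, had signals of 8.26, 8.53 and 8.42 in D12 and 8.99, 9.03 and 9.03 in AI (0.61, SE 0.074, adjusted p = 0.000103). Stc1, an inhibitor of that protease, stood at -0.59 (adjusted p = 0.0222), and its call was lost without D12 replicate 2 and without AI replicate 1 or 3. Igf1 was at 0.47 (SE 0.093, adjusted p = 0.00497) and its receptor gene Igf1r at -0.12 (SE 0.069, adjusted p = 0.387). The counts of rises and falls were 3 and 0 without AI replicate 1, 3 and 1 without D12 replicate 2, 3 and 2 without AI replicate 2 and 4 and 1 without D12 replicate 1.

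Among 19 enzymes of amino acids and the urea cycle, 1 rose and 4 fell (26.3% called, beside 7.59% of all genes). Besides Bcat1 and Ass1, these were Oat and Odc1, which make and use ornithine. Oat signals were 9.39, 9.37 and 9.45 in D12 and 8.32, 8.40 and 8.40 in AI, more than 0.9 apart (-1.03, SE 0.080, adjusted p = 1.85e-06). Oat also fell in VEH (-0.47, adjusted p = 0.0014) and in AI+E2 (-0.60, adjusted p = 0.00013). Of the 19 enzymes, 4 rose and 3 fell in VEH, and 4 rose and 6 fell in AI+E2. Over all genes 6.91% rose and 3.23% fell in VEH, and 7.52% and 4.58% in AI+E2. Odc1, the first enzyme of polyamine synthesis, had 9.96, 10.02 and 10.09 in D12, 9.19, 9.31 and 9.23 in AI and 11.20, 11.12 and 11.09 in VEH, so that it fell by 0.78 in AI (SE 0.060, adjusted p = 1.85e-06) and rose by 1.12 in VEH. The polyamine genes, put together after that value was seen, held 4 falls of 13 (30.8%, beside 4.28% of all genes that fell). The falls were those of Odc1, the arginine transporter gene Slc7a2 (-0.75), the spermidine synthase gene Srm (-0.61) and Azin1, which frees Odc1 from its inhibitor (-0.60). In VEH 3 of the 13 rose and 1 fell, Slc7a2 (-0.45). In AI+E2 1 rose and the same 4 genes as in AI fell, Slc7a2 by 1.05.

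Of 24 antioxidant and glutathione genes, 7 rose in AI (29.2%, beside 3.31% of all genes that rose) and 0 fell, with a median of 0.14. In VEH 5 rose and 2 fell, and in AI+E2 12 rose and 0 fell, with a median of 0.19 in AI+E2. Over all genes 6.91% rose and 3.23% fell in VEH, and 7.52% rose in AI+E2. The heme oxygenase gene Hmox1 had signals of 6.15, 6.11 and 6.15 in D12, 6.96, 7.03 and 6.87 in AI and 6.03, 6.07 and 6.08 in VEH (0.82, SE 0.057, adjusted p = 6.07e-07). Sod3, an extracellular superoxide dismutase, rose by 0.74 in AI and Gsta4, a glutathione transferase, by 0.72. In AI+E2, Hmox1, Sod3 and Gsta4 rose by 0.40, 0.94 and 0.62. Sod3 also rose in VEH, by 0.37, whereas Gsta4 was at -0.07 there and did not pass. Macrophage markers are given beside this group. Of 15, 3 rose in AI (Cd68, Lyz2 and C1qa) and 0 fell, or 20% called, beside 3.31% of all genes that rose. Their mean signal was 8.30 to 8.45 in AI and 8.08 to 8.23 in D12, and 7 rose without D12 replicate 2. The call of C1qa was lost in a limma fit of the 6 arrays alone (adjusted p = 0.0987). It was also lost without D12 replicate 1 or 3 or AI replicate 2 or 3 (adjusted p = 0.106, 0.135, 0.0685 and 0.128). In VEH 1 marker rose and in AI+E2 6 rose, beside 6.91% and 7.52% of all genes. Whether macrophages had a part in the antioxidant rises was not tested. The 8 genes of antigen presentation and 13 lymphocyte markers gave 0 calls in limma and 0 in the methods' t-test, with 2 each at an unadjusted p under 0.05. Of the lymphocyte markers, the kinase gene Lck passed without D12 replicate 2 and with array weights (adjusted p = 0.046 and 0.041). AI replicate 3 stood apart in the mean signal of the antigen presentation genes, at 9.19 against 8.52 and 8.56 in the other AI arrays and 8.50 to 8.75 in D12, and the list's median was -0.0439 without it, beside 0.14 with all arrays.

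Lists of vessel, matrix and cell cycle genes held more rises in VEH than in AI, as did all genes (6.91% against 3.31%). The share called in AI, beside 7.59% of all genes, was 8.33% for angiogenic, 9.09% for smooth muscle and 8% for cell cycle genes. It was 0% for endothelial markers, 16.7% for fibroblast markers and 20% for matrix genes. Of 13 endothelial markers, 0 rose and 0 fell in AI by limma (0 at an unadjusted p under 0.05 and 0 in the methods' t-test), with a median of -0.01 and mean signals of 8.19 to 8.39 against 8.27 to 8.44 in D12, while 11 rose in VEH with a median of 0.38. Of 24 angiogenic ligands and receptors, 1 rose (Flt4, 0.41) and 1 fell (Aplnr, -0.32, a call lost without AI replicate 3) in AI, and 10 rose and 1 fell in VEH. Vegfa, the main vascular growth factor, was at -0.20 (SE 0.064, adjusted p = 0.0773) in AI and rose by 0.27 in VEH. Of 11 smooth muscle and pericyte markers, 1 rose in AI (0 without D12 replicate 1, AI replicate 1 or AI replicate 2 and 2 without AI replicate 3, with 4 higher and 0 lower at an unadjusted p under 0.05), with mean signals of 8.56 to 8.79 against 8.51 to 8.54, and 7 rose in VEH. Fibroblast markers gave 2 rises of 12 in AI, Dpt and Dpep1, and 1 without AI replicate 1. Of 20 collagens and matrix genes, 3 rose and 1 fell in AI and 7 rose in VEH. Among 25 genes of the S, G2 and M phases 2 rose in AI, the ribonucleotide reductase gene Rrm2 (0.56) and the mitotic kinase gene Aurka (0.33), and 10 rose in VEH. In AI 9 of the 25 were higher and 0 lower at an unadjusted p under 0.05, and 5 rose without AI replicate 3. Whether a whole list differs between AI and VEH was not tested.

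The remaining lists are given by their counts, beside 7.59% of all genes called. Of 18 prostaglandin genes only Ptges, a prostaglandin E synthase, rose, with signals of 8.59, 8.61 and 8.71 in D12 and 9.68, 9.60 and 9.30 in AI. It rose by 0.89 in AI (adjusted p = 6.01e-05) and by 0.85 in VEH (adjusted p = 6.26e-05), and the difference between AI and VEH was 0.04 (adjusted p = 0.85). There were 2 rises and 2 falls among 27 genes of the respiratory chain and ATP synthase (14.8%), 1 and 1 among 21 apoptosis genes, 2 and 0 among 24 genes of inhibins, activins and BMP, and 0 among 19 immediate early genes in limma and in the methods' t-test (2 at an unadjusted p under 0.05). The respiratory chain count was 2 and 0 without D12 replicate 1 and 1 and 0 without AI replicate 1. Both calls of the apoptosis genes, Bcl2l11 and Tnfrsf1a, were lost without AI replicate 3, and that of Bcl2l11 also without any other array but D12 replicate 1. Both inhibin, activin and BMP calls, Bmp6 and Amhr2, were lost without D12 replicate 1 or AI replicate 3. Markers of luteal cells, 10 in all, gave 4 rises and 1 fall (50%), or 2 and 1 without AI replicate 2. Of 11 markers of follicles 1 rose, Gja1 (0.49), and its call was lost without D12 replicate 1 or 2 or AI replicate 2 or 3 (adjusted p = 0.065, 0.131, 0.068 and 0.166). Markers of red blood cells, periovarian fat and oviduct epithelium gave 0 calls of 6, 10 and 9 in limma and in the t-test, with 1, 1 and 0 at an unadjusted p under 0.05. Interferon-stimulated genes gave 0 calls of 23 in limma and in the t-test (2 at an unadjusted p under 0.05) but 14 rises without D12 replicate 2. Oas1a had signals of 7.70, 9.12 and 7.73 in D12. Inha, the inhibin α gene, ranged from 8.81 to 10.31 within D12 and from 9.62 to 10.62 in AI (0.22, SE 0.38, adjusted p = 0.854).

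**Figure D5:**
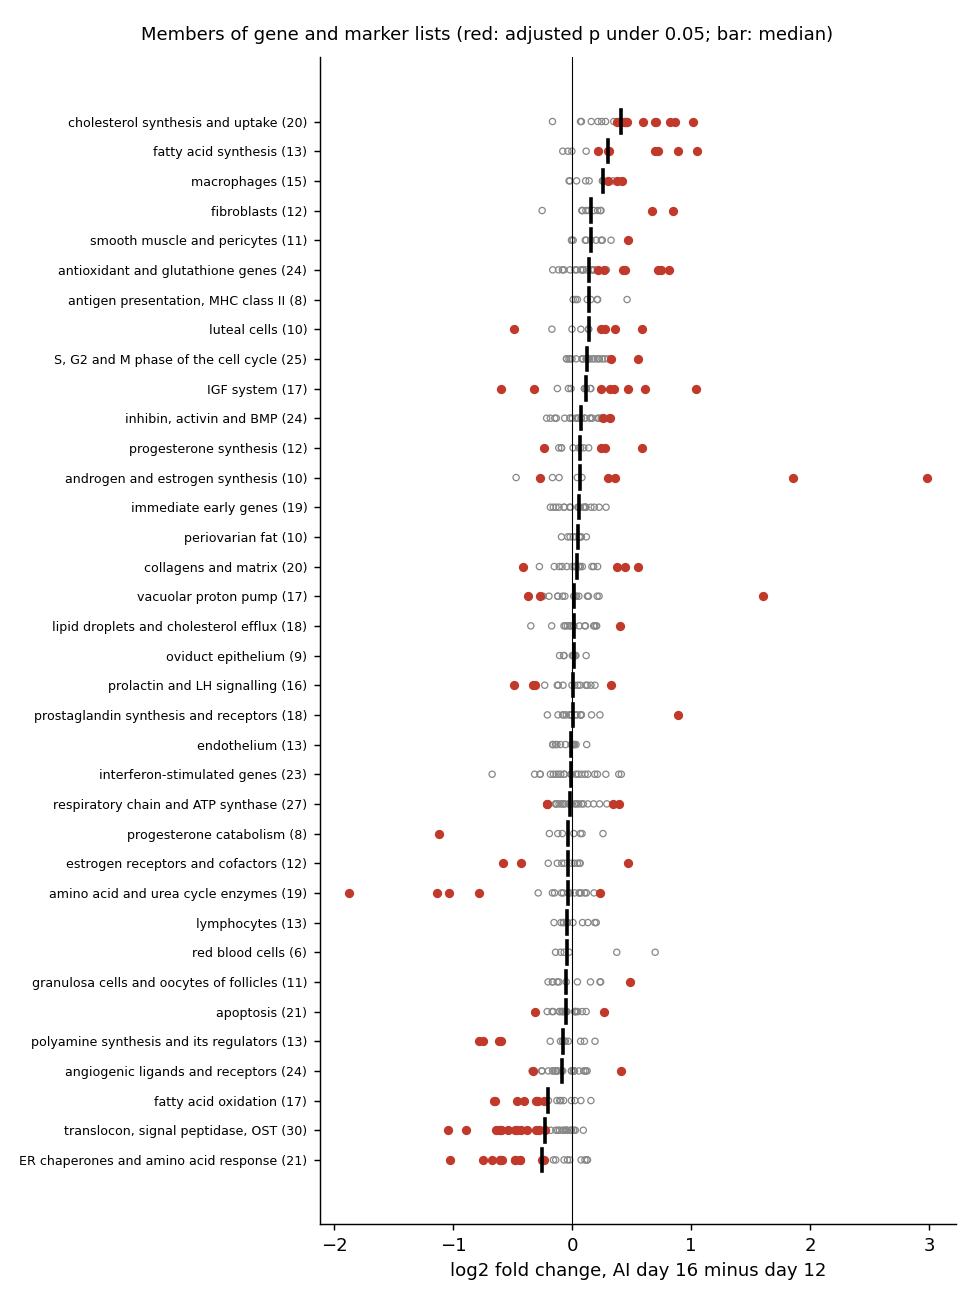
The x axis is the log2 fold change of AI day 16 CL minus day 12 CL for each measured member of each list (number measured in parentheses), in red where adjusted p was under 0.05, with a black bar at the list's median. Cholesterol synthesis has the highest median, 0.41, and the endoplasmic reticulum chaperones the lowest, -0.26.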

How the data were processed

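The data are 12 Affymetrix Rat Gene 1.0 ST arrays of luteal RNA, 3 in each group. The authors normalized the scans by RMA in R 2.12.2, per the submitters' processing notes, and deposited log2 values of 29214 probe sets. RMA subtracts background, equalises distributions and summarises probes, which can compress large differences. The set of arrays that went into one normalization is not stated.

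Probe sets with 1 symbol in the platform annotation (15310, and 3 named through the study's gene lists) were kept, and 323 with several and 13581 with none left out. Where a gene had several (527 genes), that of the study's gene lists or else the one of highest mean was used, which left 14509 genes. There was no filter on dim probe sets. Under R 4.3.3, limma 3.58.1 (lmFit, eBayes) was run on all 12 arrays (1 mean per group, 8 residual and 6.66 prior degrees of freedom), with Benjamini-Hochberg adjustment over all genes and a threshold of 0.05. The fit was run on simulated data with independent noise for each gene. Shifts shared by many genes of an array, such as that of D12 replicate 2, were not simulated. Named genes were the 10 largest rises and falls without overlap of arrays, up to 4 members of each of 34 lists by smallest p, 5 per direction by their VEH values, and a fixed set of steroidogenic, hormone receptor and growth factor genes. The members, lists and rules were chosen with earlier results of these data known, and 2 gene families were added after the values were seen. Replicate numbers did not pair the samples, since the correlations of same-numbered D12 and AI arrays' deviations were 0.126, -0.189 and -0.284. Alternatives were other probe set rules, filters, scalings, arrays in the fit, array weights, the methods' t-test, the replicate block and leaving out each array. Promoters came from RefSeq (GRCr8). Python 3.11.15, pandas 2.3.3 and matplotlib 3.10.9 were used.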

Additional observations from a re-analysis of the deposited data

Results flagged for a closer look

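Of the genes named, 27 changed from day 12 in opposite directions in AI and in VEH, each past the test. Of these 27, 17 were above day 12 in AI and 10 below it. Over all genes the lean was the reverse, with 83 such genes above day 12 in AI and 124 below it. For each of the 27 the 2 changes also differed by the limma test of AI minus VEH. That outcome follows in large part from choosing genes with opposite calls. The comparisons with day 12 share the D12 arrays, which cancel in that difference. The 27 genes were named by rules that in part use these values, so their number and direction describe that choice only.

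The difference in log2 fold change, AI minus VEH, was 4.48 for Cyp17a1, 2.26 for Cyp1b1 and 1.18 for Fdx1, the genes of steroid conversion. Genes of cholesterol synthesis gave Idi1 (3.45), Cyp51 (3.21), Sqle (2.94), Lss (1.94) and Mvd (1.57). For fatty acid synthesis it was Acss2 (2.82), Scd (2.60), Acly (1.82) and Fasn (1.04). The remaining genes above day 12 in AI and below it in VEH were Atp6v0d2 (3.94), Svs5 (3.19), Papss2 (2.02), Mmd (1.57) and Pappa (0.87).

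Below day 12 in AI and above it in VEH were Aplnr (-0.66), Acot1 (-1.55), Sec11c (-1.67), Ass1 (-1.71), Odc1 (-1.90), Rab27a (-2.15), Bcat1 (-2.35), Cd80 (-2.37), Enpp3 (-2.48) and Glod5 (-3.85). The causes were not tested.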

How the results depend on the processing

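The 1101 genes at the adjusted p, 171 at 1.5-fold and 29 at 2-fold were recounted under each alternative. The methods' t-test gave 45, 26 and 8, of which 20, 11 and 4 rose. With all probe sets there were 269 (144 rises) at 1.5-fold and 54 (38 rises) at 2-fold, since probe sets without a gene name are then tested. Leaving out 1 array gave 657 to 1054, 161 to 195 and 25 to 44 genes, and the cause was not tested. Rises were 43.6% of the calls at the adjusted p, 34.1% without AI replicate 2, 54.4% without AI replicate 3 and 56.4% without D12 replicate 3. The other alternatives kept each count within 1.5 times.

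The replicate block, which pairs arrays by their number, gave 920, 171 and 29 genes. Among 180 genes named by the rule or in the text it lost 6 calls (Lamc1, Bcl2l11, Atp5f1b, C1qa, Gja1 and Atf4) and gained 1 (Hbb-b1). The numbers do not pair the samples.

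Of list medians, that of the chaperones was -0.44 and that of progesterone catabolism -0.12 without the 50% of genes of lowest signal, and that of amino acid enzymes -0.0904 there. With quantile normalization again, that of luteal markers was 0.0457. Follicle markers were at 0.10 and 0.24, and red cell markers at 0.18 and 0.54, without the lowest 25% or 50%, as fewer members were left. With 1 array left out, the chaperone median was -0.35 to -0.22 and that of follicle markers -0.0653 to -0.00505. No named gene reversed, and 14 of the 104 named genes that passed were called under all settings run, the t-test included. Named genes that lost their call only with 1 array left out or in the t-test include Idi1, Dpt and Akr1c3. Arrays give no depth; signal near background limits dim genes, for which no detection call was used.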
